A study of Homo sapiens with 6 samples.

Results

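The 9 genes described here encode enzymes that make, use or exchange the nitrogen of asparagine, alanine, aspartate, glutamate and glutamine (ASNS, GPT2, GOT1, GOT2, GLUL, GLUD1, BCAT1), together with the mitochondrial phosphoenolpyruvate carboxykinase PCK2 and the argininosuccinate synthetase ASS1. They were taken by name from a gene count table of 57820 rows. All 9 were present once each, and all 9 passed the filter on low counts that left 17225 genes for testing. The list was drawn up with the difference between the groups already known, so the differences below describe these genes and are no independent evidence that the pathway responded.

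The samples were HEK293 cells, an established line from human embryonic kidney, held for 12 h either in DMSO vehicle (control, 3 libraries) or in 100 µM minocycline, a tetracycline antibiotic (3 libraries). No heat shock was applied in either group. The libraries are biological replicates per the series' design text, each replicate number is also a batch label with 1 library of each group, and total counts ran from 17303180 to 17835756. The line and its medium were shared by both groups, and no other genotype or allele is named.

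ASNS transfers the amide nitrogen of glutamine to aspartate and is the only human enzyme known to make asparagine. Transaminases move amino groups between amino acids and keto acids: GPT2 makes alanine from pyruvate in mitochondria, GOT1 and GOT2 interconvert aspartate and oxaloacetate in the cytosol and in mitochondria, and BCAT1 removes the amino group of branched-chain amino acids in the cytosol, passing it to 2-oxoglutarate to give glutamate. GLUL fixes ammonia onto glutamate as glutamine, and GLUD1 releases ammonia from glutamate. Several of these genes, ASNS first among them, are textbook targets of ATF4, a transcription factor made in larger amounts when amino acids run short or proteins misfold, which binds composite C/EBP-ATF elements.

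Such elements share the core TGATGNAA. The 250 bases before each RefSeq transcript start (GRCh38.p14) were searched for it on both strands, in 8 of the 9 genes. GPT2 was not among the entries used. A match was found in 3 of the 8 genes, against 3.89% of 27305 genes with a window and 3.14% of 35116 windows. Genes with several starts had several windows, 5 for BCAT1 alone. The motif and the genes were chosen with earlier results known, so no enrichment is read from these shares. The 3 stretches are printed because they allow the promoter letters to be set beside the counts. Each is 30 bases long, written 5′ to 3′ on the strand that carries the core, with the core in capitals.

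ASNS, chr7:97872458-97872487, minus strand: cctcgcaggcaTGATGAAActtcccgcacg

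BCAT1, chr12:24949131-24949160, minus strand: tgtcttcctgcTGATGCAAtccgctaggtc

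GOT1, chr10:99430804-99430833, plus strand: gctgccgagaaTGATGCAAccaatgcaatt

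In ASNS the core lay 68 to 61 bases before 1 of its 2 starts and in BCAT1 48 to 41 bases before 1 of its 5 starts, both on the strand of the gene. In GOT1 it lay 198 to 191 bases before the start on the opposite strand. A match is a run of letters and was not tested as a binding site. PCK2, GOT2, GLUL, GLUD1 and ASS1 had no TGATGNAA in these windows. The E-box CACGTG, which reads the same on both strands, was present in 6.34% of windows and 7.73% of genes. Among the 8 genes it was present in ASS1 alone, 71 to 66 bases before 1 of its 2 starts.

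ASNS rose with minocycline, and its transcripts were 3.01 times as frequent as in the controls. Levels are given in CPM, counts relative to each library's sum over the 17225 genes tested, scaled with TMM factors. The control libraries 1, 2 and 3 held 104, 131 and 137 CPM, and the minocycline libraries 1, 2 and 3 held 353, 338 and 425. Every minocycline library thus lay well above every control library. The log2 fold change was 1.59 ± 0.16 (SE; 95% interval 1.24 to 1.94; edgeR quasi-likelihood test, Benjamini-Hochberg adjusted p = 0.00762 over all genes). Within batches 1, 2 and 3 the log2 difference was 1.77, 1.37 and 1.64. The call was lost without control replicate 2, minocycline replicate 1 or minocycline replicate 3 (edgeR adjusted p = 0.0758, 0.104 and 0.0834), while the log2 fold change ran from 1.47 to 1.74 over all 16 alternatives. These are bulk RNA samples scaled to their totals, in which a change in the share of cells that express a gene and a change in its RNA per cell cannot be told apart.

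ASNS was the single member of the 9 past the threshold of an adjusted p under 0.05, which 0.0522% of all 17225 genes passed. Of the 9 genes, 7 had a higher and 2 a lower fitted level with minocycline, and the median log2 fold change was 0.13 against 0.01 over all genes tested. Groups did not overlap in 4 members, ASNS, GPT2, PCK2 and BCAT1, each higher with minocycline. Of all genes tested, 9.31% had groups that did not overlap, 5.74% higher and 3.56% lower. Since the contrast helped to choose the members, nothing is read from these shares.

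**Figure D1:**
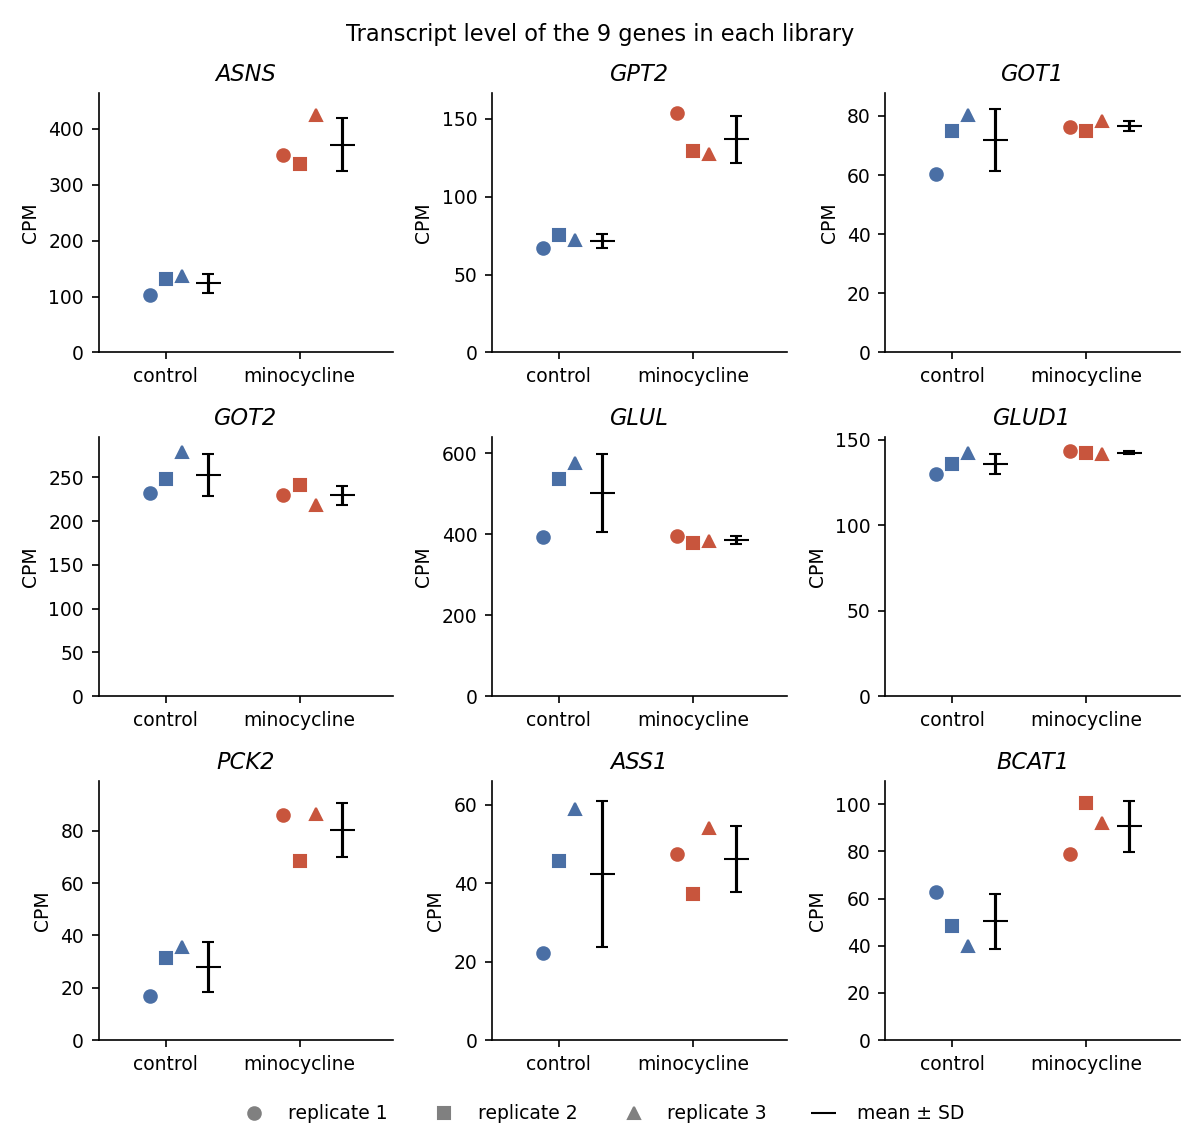
Level in CPM (vertical axes, from 0) of each gene in the 3 control (blue) and 3 minocycline (red) libraries; symbols mark the replicate number, and the black bar is the mean ± SD of the group. The groups stand apart in ASNS, GPT2, PCK2 and BCAT1 and overlap in the other 5 genes.

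GPT2 was the transaminase with the largest difference among the 4 in the list. It held 66.9, 75.7 and 72.2 CPM in the control libraries and 154, 129 and 127 CPM with minocycline. The groups were far apart relative to their spread, with means of 71.6 ± 4.41 and 136.8 ± 14.9 CPM (SD, n = 3). The log2 fold change of 0.93 ± 0.13 (95% interval 0.64 to 1.23) missed the threshold by a small margin (edgeR adjusted p = 0.0523). It passed in 5 of 16 alternatives, and the estimate ran from 0.84 to 1.01 over all 16. The 5 were library size alone, DESeq2, no filter on low counts, 1 surrogate variable (a term estimated from the counts) and without control replicate 1. In that order these settings called 13 of 17225, 49 of 17225, 94 of 33543, 91 of 17225 and 3154 of 17658 genes. The main fit called 9 of 17225. The cytosolic paralog of GPT2, GPT, was rare in these cells, with 32 to 46 counts per library against 1195 to 2819 for GPT2. The log2 fold change of GPT was -0.14 ± 0.27 (edgeR adjusted p = 0.906).

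BCAT1 held 62.9, 48.4 and 39.8 CPM in the controls and 79.0, 101 and 92.1 CPM with minocycline. The groups did not overlap, and the highest control library and the lowest minocycline library were both replicate 1. A log2 fold change of 0.85 ± 0.18 (95% interval 0.44 to 1.25; edgeR adjusted p = 0.391) was fitted, which passed in 4 of 16 alternatives. The 4 were DESeq2, no filter on low counts, 1 surrogate variable and without control replicate 1. Over all genes these settings called 49, 94, 91 and 3154, against 9 in the main fit. The difference was uneven over the batches, 0.33 in batch 1 against 1.06 and 1.21 in batches 2 and 3. BCAT2, the mitochondrial branched-chain transaminase, had 113.6 ± 22.7 CPM in controls and 97.2 ± 6.95 CPM with minocycline, a log2 fold change of -0.22 ± 0.16 (edgeR adjusted p = 0.820).

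The aspartate transaminases GOT1 and GOT2 showed small differences. GOT1 held 60.3, 74.9 and 80.5 CPM in controls and 76.4, 74.8 and 78.2 CPM with minocycline. The minocycline libraries lay within the range of the controls, whose lowest value came from replicate 1. Its log2 fold change was 0.09 ± 0.14 (95% interval -0.22 to 0.40; edgeR adjusted p = 0.887), and it turned to -0.024 without control replicate 1. GOT1 carries a TGATGNAA core, printed above, as ASNS and BCAT1 do.

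GOT2 held 232, 247 and 278 CPM in controls and 229, 241 and 219 CPM with minocycline. The groups overlapped, and the log2 fold change was -0.14 ± 0.13 (95% interval -0.42 to 0.14; edgeR adjusted p = 0.830). GOT2 was nonetheless the more frequent transcript per length in every library. Per kb of exon the ratio of GOT2 to GOT1 was 2.49, 2.13 and 2.24 in controls and 1.94, 2.08 and 1.81 with minocycline. The ratio was lower in each minocycline library than in any control library, a comparison made without a test and after the counts had been seen.

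PCK2, which turns mitochondrial oxaloacetate into phosphoenolpyruvate, had the second largest difference of the 9. It held 16.96, 31.3 and 35.5 CPM in controls and 86.0, 68.5 and 86.6 CPM with minocycline. All minocycline libraries were above all controls, and control replicate 1 was far below the other controls. The log2 fold change of 1.53 ± 0.25 (95% interval 0.96 to 2.09) did not pass (edgeR adjusted p = 0.120). With the batch as a replicate block it was 1.58 ± 0.23 and passed (edgeR adjusted p = 0.0250). In that fit 2 of the 9 genes, ASNS and PCK2, were called, beside 13 of all 17225 genes tested. Within batches 1, 2 and 3 the difference in PCK2 was 2.34, 1.13 and 1.29. Over the 16 alternatives it ran from 1.26, without control replicate 1, to 1.92. The cytosolic isozyme PCK1 was below the filter, at a mean of 0.353 CPM in controls and 0.240 CPM with minocycline.

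**Figure D2:**
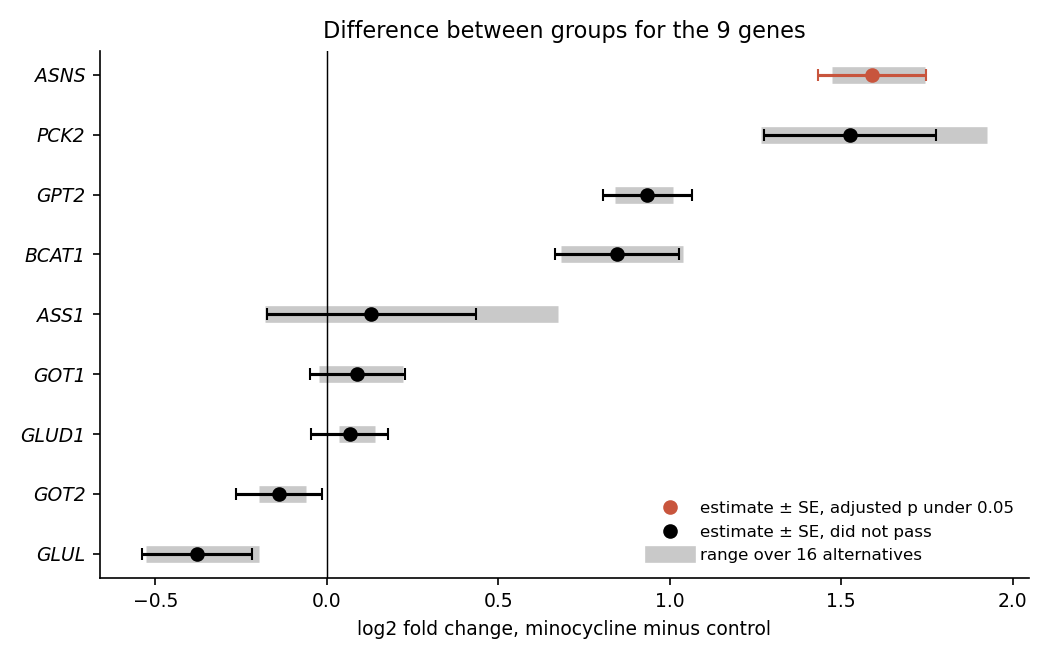
Log2 fold change of each gene (horizontal axis, minocycline minus control) with its SE, red where the adjusted p was under 0.05; grey bands give the range of the estimate over the 16 alternative settings. ASNS and PCK2 lie at 1.59 and 1.53, GPT2 and BCAT1 at 0.93 and 0.85, and the bands of ASS1 and GOT1 cross 0.

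GLUL, the glutamine synthetase, had the largest difference in the lower direction. It held 392, 537 and 575 CPM in controls and 396, 379 and 383 CPM with minocycline. The minocycline libraries were close together, with a coefficient of variation of 2.35% against 19.2% in controls, and control replicate 1 lay among them. Its log2 fold change was -0.38 ± 0.16 (95% interval -0.74 to -0.02; edgeR adjusted p = 0.820). Without control replicate 1 it was -0.53 and passed (edgeR adjusted p = 0.00784), in a setting where 3154 of 17658 genes passed. Within batches 1, 2 and 3 the difference was 0.01, -0.50 and -0.59.

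GLUD1, the mitochondrial glutamate dehydrogenase, varied least of the 9 genes within both groups. It held 130.3, 136 and 142 CPM in controls and 144, 142 and 142 CPM with minocycline. Its coefficient of variation was 4.34% in controls and 0.698% with minocycline, the lowest of the 9 in both groups. These spreads rest on 3 libraries a group and include counting noise, so no steadiness of the gene itself is read from them. The log2 fold change was 0.07 ± 0.11 (95% interval -0.19 to 0.32; edgeR adjusted p = 0.895), and none of the 16 alternatives called it. The retrocopy GLUD2 had 5 to 17 counts per library and was below the filter.

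Set against each other per kb of exon, GLUL exceeded GLUD1 by 3.41, 4.47 and 4.57 times in controls and by 3.12, 3.01 and 3.05 times with minocycline. The ratio of GLUL to ASNS was 1.47, 1.59 and 1.63 in controls and 0.435, 0.435 and 0.349 with minocycline. Per length, transcripts of the enzyme that makes glutamine were therefore more frequent than those of the enzyme that consumes it for asparagine in every control library, and less frequent in every minocycline library. These ratios hold the ASNS difference already given and were not tested.

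ASS1, which joins citrulline and aspartate in arginine synthesis, varied more between replicates than any other member. It held 22.2, 45.7 and 59.0 CPM in controls and 47.5, 37.3 and 54.0 CPM with minocycline. The control libraries spanned the minocycline libraries completely, with a coefficient of variation of 44.1%. The log2 fold change was 0.13 ± 0.31 (95% interval -0.56 to 0.82; edgeR adjusted p = 0.921), an interval too wide to tell a moderate rise from a fall. Without control replicate 1 it was -0.18 and without minocycline replicate 3 it was -0.01, while 1 surrogate variable, a term estimated from the counts for variation not in the labels, gave 0.67 (edgeR adjusted p = 0.00362).

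Control replicate 1 stood apart in several of these genes. On the first principal component of all genes tested, which held 52.9% of the variance, it lay at -34.9, beside minocycline replicate 2 at -32.3, while control replicates 2 and 3 lay at 31.1 and 47.1 and minocycline replicates 1 and 3 at -14.04 and 3.06. Relative to the mean of the 6 libraries its log2 level was -0.93 for ASS1 and -1.44 for PCK2, and it was the lowest control library in ASNS, GPT2, GOT1, GOT2, GLUL, GLUD1, PCK2 and ASS1. In BCAT1 it was the highest control library. The part of this library difference in the results was not tested beyond leaving the library out.

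**Figure D3:**
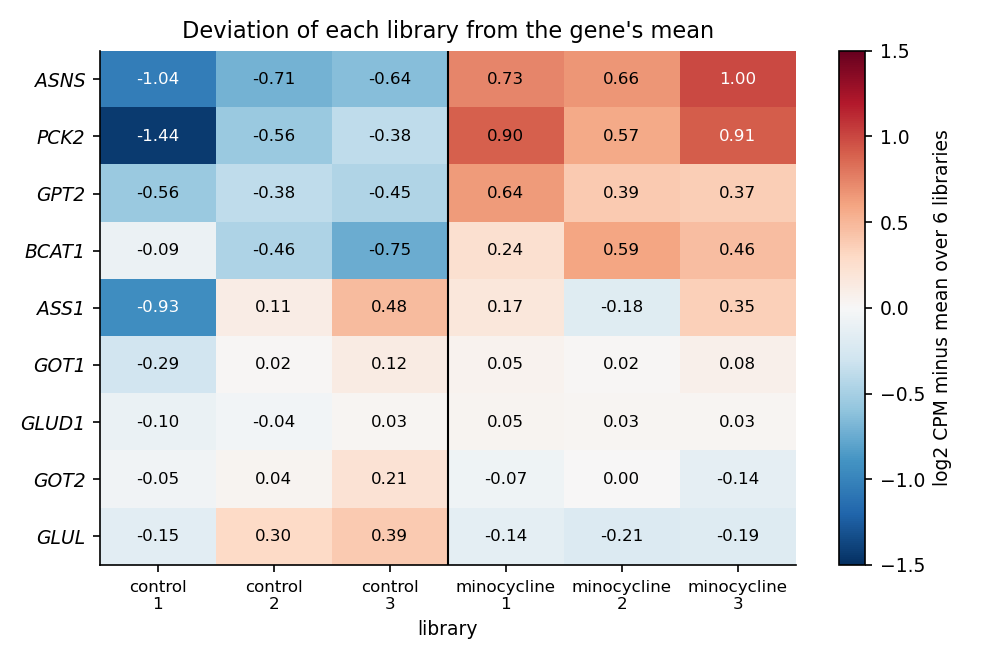
Log2 CPM of each gene in each library minus the gene's mean over the 6 libraries (colour and printed value), with control libraries left of the line and minocycline libraries right of it. ASNS, PCK2 and GPT2 are low in all controls and high in all minocycline libraries, while ASS1 is low in control replicate 1 (-0.93) and GLUL high in control replicates 2 and 3.

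Levels can be compared between genes after division by length, here in CPM per kb over the union of annotated exons. In controls the order was GOT2 (67.3 ± 6.31, SD, n = 3), GLUL (39.7 ± 7.61), GOT1 (29.7 ± 4.31), ASNS (25.2 ± 3.58), ASS1 (14.02 ± 6.18), GPT2 (11.3 ± 0.693), GLUD1 (9.52 ± 0.413), PCK2 (6.69 ± 2.33) and BCAT1 (4.41 ± 1.02). Libraries of neighbours in this order overlapped for GLUL and GOT1, GOT1 and ASNS, ASS1 and GPT2, and PCK2 and BCAT1. With minocycline ASNS stood first (76.0 ± 9.55), above GOT2 (61.2 ± 2.90) without overlap. GOT1 (31.5 ± 0.695) and GLUL (30.5 ± 0.718) followed and overlapped, as did GPT2 (21.5 ± 2.34) with PCK2 (19.2 ± 2.47) and PCK2 with ASS1 (15.3 ± 2.79). GLUD1 (9.98 ± 0.0696) and BCAT1 (7.93 ± 0.951) were last.

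The length used matters for part of this order. With the longest annotated transcript in place of all exons, GLUD1 (21.7 ± 0.944 CPM per kb in controls) moved above GPT2 and to the level of ASS1 (21.4 ± 9.45), and ASNS (51.8 ± 7.35) moved above GOT1 (36.3 ± 5.28). With minocycline GLUL (51.1 ± 1.20) then stood above GOT1 (38.7 ± 0.851) without overlap. GOT2 stayed first in controls and ASNS first with minocycline under both lengths, and BCAT1 last in both groups.

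**Figure D4:**
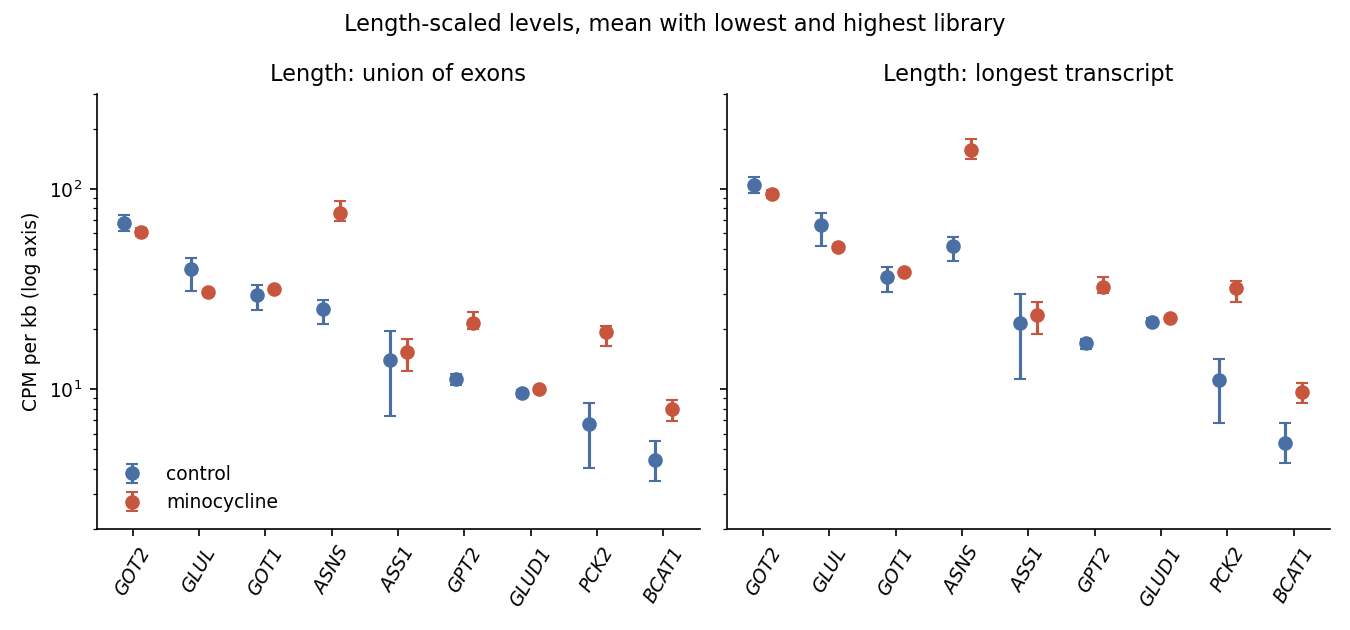
Mean CPM per kb (log axis) of the 9 genes, ordered by their control level over the union of exons, in control (blue) and minocycline (red) libraries; bars run from the lowest to the highest library, and the panels use the union of exons or the longest transcript as length. ASNS moves from the upper middle of the order in controls to the top with minocycline.

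The genes most like ASNS over the 6 libraries were found by the root-mean-square distance between log2 CPM values centred on each gene's mean, among 11873 other genes with a mean of at least 5 CPM. They were PSAT1, the phosphoserine aminotransferase of serine synthesis (distance 0.18), INHBE, an activin subunit (0.21), the fucosyltransferase FUT1 (0.22), PCK2 (0.22) and DDIT4, an inhibitor of mTORC1 (0.22). PCK2 thus ranked 4 among all these genes, GPT2 ranked 12 (0.38) and BCAT1 ranked 43 (0.50). GOT1, ASS1 and GLUD1 ranked 1776, 1770 and 2675, and GOT2 and GLUL ranked 8170 and 11272, the latter near the far end. The likeness rests mainly on the step between the groups and is a description of these libraries.

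Around these genes, 66 others of the same pathways were grouped in 5 lists by role, of which 54 passed the filter. A single one was called, PSAT1, itself a transaminase that draws on glutamate, which rose from 143.6 ± 12.4 to 354 ± 11.9 CPM (SD, n = 3; log2 fold change 1.30 ± 0.12, edgeR adjusted p = 0.00759). Over all genes tested 0.0522% were called. Of the 54 genes 23 had a higher and 31 a lower fitted level, with a median log2 fold change of -0.04, against 8975 higher, 8250 lower and a median of 0.01 over all genes tested. Groups did not overlap in 3 of the 54, PSAT1 above and GFPT2 and OGDH below the controls, where 9.31% of all genes tested had groups that did not overlap.

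Among the other transaminases with GLUD2, 8 of 13 were tested, 1 was called, 2 had a higher and 6 a lower fitted level, and the median log2 fold change was -0.12. BCAT2, given above, had the smallest p after PSAT1. Among the glutaminases, the glutamine amidotransferases and enzymes related to them, all 13 were tested and none was called. Of these 11 had a higher and 2 a lower fitted level, with a median of 0.08. CPS1, the mitochondrial carbamoyl phosphate synthetase, had 0.39 ± 0.24, and the glutaminase GLS2 had 0.17 ± 0.16 on the log2 scale (edgeR adjusted p = 0.820 and 0.832). ASNSD1, which shares a domain with ASNS, had 66.0 ± 2.31 CPM in controls and 63.1 ± 8.75 CPM with minocycline.

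Among the users of aspartate and arginine, 8 of 13 were tested and none was called, with 1 higher, 7 lower and a median of -0.11. NAGS, which makes the activator of CPS1, had -0.28 ± 0.21, and ADSS2, an adenylosuccinate synthetase, 0.22 ± 0.17 (edgeR adjusted p = 0.820 and 0.825). ASL, the lyase that follows ASS1, was at 11.3 ± 0.930 CPM in controls and 10.9 ± 0.807 CPM with minocycline. ASPG, which breaks down asparagine, and OTC, which makes citrulline, were below the filter.

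Among the enzymes and carriers of oxaloacetate, phosphoenolpyruvate and the malate-aspartate shuttle, 14 of 15 were tested and none was called, with 2 higher, 12 lower and a median of -0.16. SLC25A1, the mitochondrial citrate carrier, had -0.48 ± 0.21, and OGDH, a subunit of the 2-oxoglutarate dehydrogenase complex, -0.23 ± 0.13 (edgeR adjusted p = 0.820 for both). Pyruvate carboxylase, PC, 1 of the enzymes that make oxaloacetate, was at 33.1 ± 3.15 CPM in controls and 33.4 ± 3.18 CPM with minocycline. Among the genes of branched-chain amino acid breakdown downstream of BCAT1 and BCAT2, 11 of 12 were tested and none was called, with 7 higher, 4 lower and a median of 0.06. BCKDK, the kinase that inhibits the branched-chain keto acid dehydrogenase, had -0.28 ± 0.16, and DBT, a subunit of that complex, 0.35 ± 0.19 (edgeR adjusted p = 0.820 for both). Over the 4 lists without a call, edgeR's unadjusted p was under 0.05 in 1 gene, SLC25A1, against 809 of all 17225 genes tested. DESeq2 and limma-voom also called 0 genes in these 4 lists.

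Pseudogene copies bear on some of these counts, since reads may be split between near-identical sequences and the counting program is not given in the sources used here. Rows named as copies of ASNS, 3 of 5 with any count, summed to 16, 28 and 31 counts in controls and 74, 65 and 92 with minocycline, 0.832% to 1.35% of ASNS and its copies together. Most came from ASNSP1, with 9, 27 and 28 counts in controls and 72, 62 and 80 with minocycline, so that this row was higher where its parent was. ASNSP5 gave 6 of the 16 counts in control replicate 1 and 11 of the 92 in minocycline replicate 3. Copies of ASS1 took the largest share, 2.98% to 17.1%, and were most counted where ASS1 was least, with 84 counts in control replicate 1 against 34 and 30 in the other controls. Copies of GLUD1 took 3.24% to 4.54%, those of GOT2 at most 0.0723% and those of GLUL at most 0.0144%. With the copies added to their parents the log2 fold change of ASNS was 1.59 (edgeR adjusted p = 0.00810) and that of ASS1 0.13.

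In GRCh37 coordinates the members lie at chr7:97480989-97501854 (ASNS, ENSG00000070669.12), chr16:46918274-46965201 (GPT2), chr10:101156627-101190381 (GOT1), chr16:58741035-58768246 (GOT2), chr1:182347233-182361341 (GLUL), chr10:88809959-88854600 (GLUD1), chr14:24563262-24579807 (PCK2), chr9:133320348-133376661 (ASS1) and chr12:24962958-25102035 (BCAT1). GPT2, PCK2 and ASS1 are on the plus strand and the other 6 on the minus strand, and all 9 are annotated as protein-coding. Counts are sums over each gene and do not separate exons or transcripts. GLUD1 overlaps SHLD2 and PCK2 lies within NRL on the opposite strand, and the use of strand in counting is not given in the sources used here. NRL had 34 to 51 counts per library, below the 312 to 1574 of PCK2, and SHLD2 had 441 to 967, below the 2274 to 2629 of GLUD1.

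Of 8 markers listed for HEK293, 7 were matched to a row by symbol and NEFL was not. All 7 were expressed, from PAX2 at 2.61 to 5.08 CPM to KRT8 at 657 to 1048 CPM. Their summed level was 1517 to 2206 CPM in controls and 1647 to 1907 CPM with minocycline. Summed markers of blood and immune cells (4 genes) reached at most 0.164 CPM and of liver cells (3 genes) at most 0.776 CPM in any library. The 3 fibroblast markers summed to 73.0 to 81.2 CPM in controls and 53.0 to 70.03 CPM with minocycline, without overlap, nearly all of it COL1A1, while COL1A2 and DCN were at most 0.119 CPM. The part of this difference in the results was not tested. The 3 muscle markers summed to at most 4.12 CPM.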

How the data were processed

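RNA-seq gene counts of 6 libraries were analysed. The authors deposited whole-number counts per gene without normalization, 1 column per library, per the file headers. The genome build was hg19 per the submitters' processing notes, and the aligner, counter, annotation and strand setting are not given in the sources used here. Positions and lengths came from GENCODE annotation on GRCh37, and promoter windows from RefSeq on GRCh38.p14.

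Counts were filtered with filterByExpr, scaled by TMM and tested with edgeR 4.0.16 (glmQLFit, glmQLFTest, R 4.3.3), treatment as the single term, with Benjamini-Hochberg adjustment over all genes and a threshold of 0.05. The SE is the log2 fold change divided by the square root of F. The test was tested on simulated data with known changes. Alternatives were other scalings, DESeq2 1.42.0, limma-voom (limma 3.58.1), other filters, a replicate block, 1 surrogate variable (sva 3.50.0), each library left out and, added after the data were seen, pseudogene copies summed with their parents.

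The labels give the replicate number as a batch, which pairs the libraries. Deviations from the group means correlated across genes by -0.05, -0.29 and 0.30 in same-numbered pairs. Pairs of unlike number ran from -0.42 (control 3 with minocycline 2) to 0.50 (control 1 with minocycline 2). Same-numbered libraries were thus not more alike than others, and the within-batch differences rest on the labels alone. Replicates differed by 6.22 (control replicates 2 and 3) to 70.8 (control replicates 1 and 3) chi-square per degree of freedom. No library was thus the same library sequenced again. The measure cannot show that the cultures were independent. Members, gene lists and motifs were chosen with earlier results of these data known. Named genes were all 9 members, called genes and the 2 with the smallest p of each list, and the 5 most like ASNS, and ASNSD1, ASL, PC, GFPT2 and the genes of low count were added afterwards.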

Additional observations from a re-analysis of the deposited data

How the results depend on the processing

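ASNS was called in 13 of 16 alternatives and kept its direction in all of them, as did GPT2, PCK2, BCAT1, GLUD1, GOT2 and GLUL. The count of all genes called, 9 of 17225, was 13 with library size alone, 49 with DESeq2 and 91 with 1 surrogate variable. Without a filter on low counts it was 94 of 33543. When a library was left out it ran from 1 to 3154. It was 1 without minocycline replicate 1 or minocycline replicate 3, 4 without control replicate 2 and 3154 of 17658 without control replicate 1. The count of members called, 1, was 2 with library size alone, 4 with DESeq2, 4 without a filter, 5 with 1 surrogate variable and 0 to 5 with a library left out (5 without control replicate 1). With the replicate block, which follows the batch label, 13 genes and 2 members were called, and the block changed the call of no member but PCK2. Leaving out a library gave log2 fold changes of -0.024 (without control replicate 1) to 0.17 for GOT1 and -0.18 to 0.44 for ASS1, which was -0.01 without minocycline replicate 3. The cause of these reversals was not tested. Other scalings moved the median of all genes by at most 0.07 on the log2 scale. With 3 libraries a group, 95% intervals reaching 0.25 to 0.69 on either side of a member's log2 fold change limit what can be told for the genes that did not pass.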
